A study of Mus musculus with 4 samples.

Results

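Transforming growth factor beta (TGF-beta) signalling was examined at the level of 10 genes that encode its ligand, its receptors, its SMAD transducers and its feedback inhibitors: Tgfb1, Tgfbr1, Tgfbr2, Tgfbr3, Smad2, Smad3, Smad4, Smad7, Ski and Skil. They were taken by gene symbol from a deposited table of 34745 genes, and all 10 matched 1 row each and passed the filter on low counts, as did 13279 genes in all. The cells were naive CD4+ T cells taken from spleens of the C57BL/6 strain and kept for 3 days in culture conditions that polarize towards regulatory T (Treg) cells, the T cells that restrain immune responses. The libraries numbered 22 and 24 came from mice whose genotype is labelled Setd2-CD4 cre, and the others, numbered 13 and 15, from mice labelled wild type. Setd2 encodes the histone methyltransferase that writes the H3K36me3 mark, and a CD4-driven Cre recombinase acts in the CD4 lineage and also in CD8 T cells, which pass through a CD4+ stage in the thymus. The polarizing agents, the exact alleles, the age and sex of the mice, and the number of animals behind each library are not named in the labels, so p-values here measure the spread between libraries, which may be technical.

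Active TGF-beta binds the type II receptor TGFBR2, which recruits and phosphorylates the type I receptor TGFBR1. That kinase phosphorylates SMAD2 and SMAD3, which join SMAD4 and act on genes in the nucleus, while SMAD7 blocks the activated receptor and the corepressors SKI and SKIL (also called SnoN) hold SMAD target genes silent. In CD4 T cells the pathway is known for inducing Foxp3, the transcription factor of Treg cells, and, together with inflammatory cytokines, for driving differentiation into T helper 17 (Th17) cells.

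Tgfbr1 was the 1 gene of the 10 that passed the threshold, and it fell. The nucleotide sequences upstream of its annotated starts are shown because Tgfbr1 carries the called difference, and because reads counted per gene do not tell these starts apart. They are the 250 bases before each of the 2 starts that RefSeq lists for Tgfbr1 on the plus strand of GRCm38.p6, and capitals mark CAGAC or its complement GTCTG, a short form of the SMAD-binding element. The first lies at chr4:47352972-47353221 and ends just before the gene's first base in the deposited table, and the second lies within the gene at chr4:47385966-47386215.
Tgfbr1 first start: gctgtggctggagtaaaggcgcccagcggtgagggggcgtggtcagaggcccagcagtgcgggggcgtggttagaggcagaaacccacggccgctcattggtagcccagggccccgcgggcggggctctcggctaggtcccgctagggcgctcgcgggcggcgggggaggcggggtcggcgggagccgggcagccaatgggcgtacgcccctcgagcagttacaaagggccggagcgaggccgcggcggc
Tgfbr1 second start: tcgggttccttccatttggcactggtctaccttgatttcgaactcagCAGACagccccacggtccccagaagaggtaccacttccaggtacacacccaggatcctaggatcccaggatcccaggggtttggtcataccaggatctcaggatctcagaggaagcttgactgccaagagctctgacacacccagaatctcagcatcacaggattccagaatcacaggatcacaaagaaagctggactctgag
The palindromic element GTCTAGAC was in neither window, and it was in 0.167% of the 32851 windows of this length in the RefSeq table. CAGAC, searched on both strands, was absent from the first window and present 1 time in the second, while 42.2% of all windows held it. G and C made up 74.8% of the first window and 52.8% of the second. RefSeq entries matched 5 of the 10 genes.

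Library totals were 14599957 to 16030869 counts, and a count of 3 corresponds to 0.184 to 0.201 CPM. CPM, the unit of levels below, is a count relative to the scaled total of its library. Setd2 measured 137 and 113 CPM in the Setd2-CD4 cre libraries 22 and 24, against 137 and 146 CPM in wild type 13 and 15 (adjusted p = 0.436). A count over the whole gene does not show a deletion of a few exons, so libraries 22 and 24 are called knockout-labelled below. T cell genes were abundant: 7 of 7 markers of CD4 T cells were detected, with a summed level of 3637 to 3795 CPM in knockout-labelled libraries and 3552 to 3707 CPM in wild type, and none of the 7 passed the threshold. In knockout-labelled against wild-type libraries, markers of gamma-delta T cells summed to 39.3 to 58.0 CPM against 15.7 to 17.8 CPM. Of these, 3 of 4 rose, beside 5.53% of all genes: Cd163l1, and Tcrg-C1 and Tcrg-C2, similar segments that may share reads. Tcrg-C1 and Tcrg-C2 passed in 10 of 14 alternative fits each, and not in the limma fits described below. With wild type 15 left out, where few of all genes passed, Tcrg-C1 and Tcrg-C2 did not pass either (log2 fold change 1.66 and 1.29). The sums were 24.4 to 35.6 against 13.9 to 15.6 CPM for B cells (0 of 5 passed) and 58.0 to 66.5 against 42.7 to 44.2 CPM for stromal and endothelial cells (0 of 5 passed, nearly all from Pecam1). The sums for natural killer cells (1.79 to 4.55 against 1.21 to 1.47 CPM), erythroid cells (1.94 to 2.68 against 2.15 to 2.57 CPM), platelets (4.95 to 5.55 against 4.36 to 5.58 CPM, with Gp9 at 0), myeloid cells (22.1 to 26.2 against 21.9 to 27.5 CPM) and CD8 T cells (78.4 to 182 against 125 to 183 CPM) came with 0 genes past the threshold. The part of these cells in the values below was not tested, and in RNA from bulk cultures fewer cells of a type and less RNA per cell cannot be told apart.

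Among the 10 genes, 1 was lower, 0 were higher and 9 did not pass an adjusted p of 0.05, beside 10.1% of all genes tested that passed (5.53% higher and 4.59% lower). The share of called genes was thus near that of all genes. At an unadjusted p under 0.05, which 31.6% of all genes met, stood Tgfbr1, Skil and Ski. The knockout-labelled and wild-type values did not overlap for 9 of the 10 genes, beside 63.8% of all genes, and Smad3 was the exception. Fitted values lay above 0 for 5 of the genes and below 0 for 5, and the median of the 10 log2 fold changes was 0.05 (their median size 0.25), beside -0.0013 (0.31) over all genes tested.

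**Figure D1:**
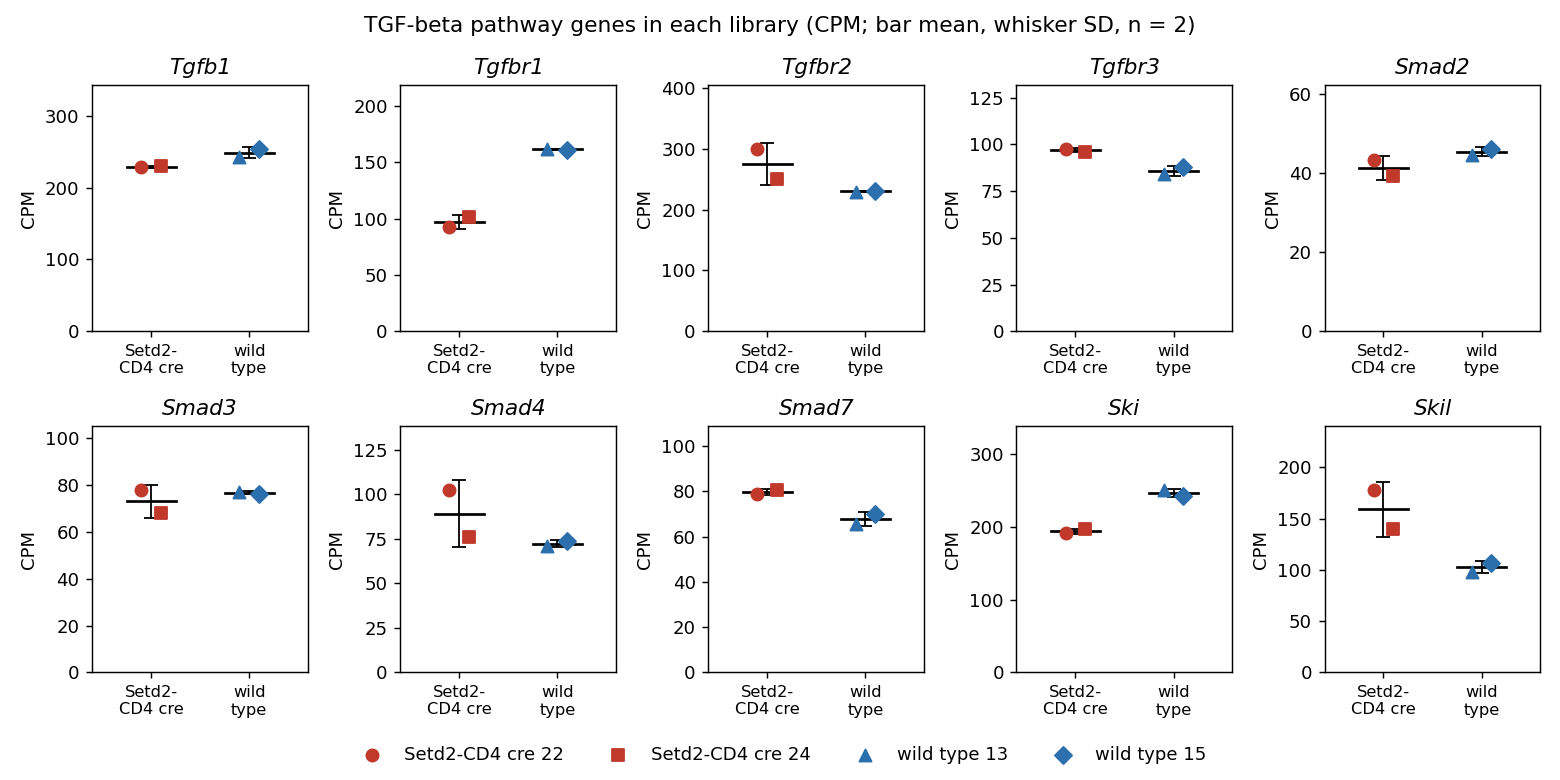
Level in CPM of each of the 10 genes in the knockout-labelled (Setd2-CD4 cre, red) and wild-type (blue) libraries, on an axis from 0 that differs between panels. Points are libraries, bars the mean and whiskers the SD (n = 2 each). The libraries of each group lie far apart from the other group for Tgfbr1, at 92.8 and 101 CPM against 162 and 161 CPM.

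The ligand gene Tgfb1 (chromosome 7, 25687002 to 25705077, GRCm38) measured 228 and 230.2 CPM in knockout-labelled 22 and 24, against 243 and 254 CPM in wild type 13 and 15. Both knockout-labelled values were lower, but the difference did not pass the threshold (-0.12 on the log2 scale, SE 0.11, adjusted p = 0.499). The 95% interval of that difference was -0.38 to 0.15.

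Tgfbr1, the type I receptor kinase (ENSMUSG00000007613, chromosome 4, 47353222 to 47414931, plus strand), measured 92.8 and 101 CPM in knockout-labelled 22 and 24, against 162 and 161 CPM in wild type 13 and 15. Both knockout-labelled libraries were lower than both wild-type libraries, and the wild-type pair was nearly equal. The group means were 97.1 ± 6.00 CPM and 162 ± 0.647 CPM (SD, n = 2 each), a level 1.66-fold lower in the knockout-labelled group (log2 fold change -0.73, SE 0.12, adjusted p = 0.0234 by edgeR's quasi-likelihood test). It ranked 399 of 13279 genes by p, and its log2 fold change was larger in size than that of 81.4% of them. Leaving out each library in turn moved the log2 fold change between -0.80 and -0.66. The adjusted p was 0.143 with wild type 13 left out and 0.174 with wild type 15 left out, in fits where 2.33% and 1.37% of all genes passed.

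Tgfbr2, the type II receptor that binds the ligand, measured 299.8 and 251 CPM in knockout-labelled 22 and 24, against 229 and 231 CPM in wild type 13 and 15. Its knockout-labelled values lay above the wild-type values, library 22 by more than library 24, and the gene did not pass the threshold (log2 fold change 0.26, SE 0.13, 95% interval -0.05 to 0.57, adjusted p = 0.224). With knockout-labelled 24 left out, its adjusted p was 0.0202 and its log2 fold change 0.38, in a fit where 30.2% of all genes passed. Tgfbr3, the co-receptor betaglycan that presents ligand to TGFBR2, measured 97.7 and 96.1 CPM against 84.1 and 87.9 CPM, in the same order of libraries. That small excess in the knockout-labelled pair did not pass either (log2 fold change 0.17, 95% interval -0.12 to 0.47, adjusted p = 0.378). The annotation places 3 gene models of provisional status on the same strand and 1 processed pseudogene on the other strand within the span of Tgfbr3, and reads of these cannot be told apart where they overlap its exons.

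The receptor pair was also compared within each library. The ratio of Tgfbr1 to Tgfbr2, taken from the authors' deposited FPKM (scaled to gene length and library total), was 0.162 and 0.212 in knockout-labelled 22 and 24, against 0.370 and 0.366 in wild type 13 and 15. A ratio within a library does not depend on how libraries are scaled, and both knockout-labelled values were below both wild-type values (0.187 ± 0.035 against 0.368 ± 0.00317, SD, n = 2 each). An exact permutation test of this ratio could reach no p lower than 0.333 with 2 libraries a group, so none is given. This ratio and that of Skil to Ski were singled out after the values were seen, from 4 ratios computed, and the groups did not overlap in any of the 4.

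**Figure D2:**
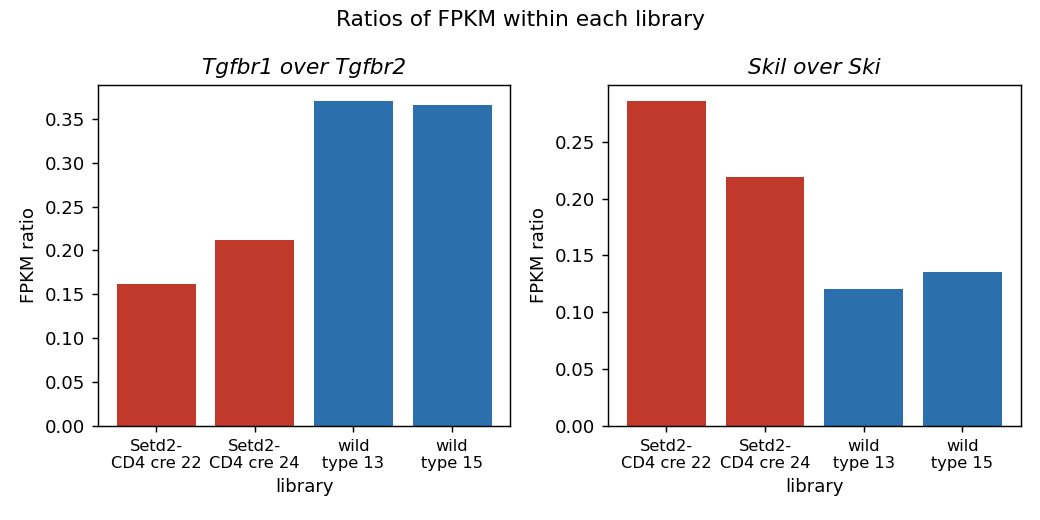
Ratios of FPKM within each library for the receptor pair Tgfbr1 over Tgfbr2 (left) and the corepressor pair Skil over Ski (right), with knockout-labelled (Setd2-CD4 cre) libraries in red and wild type in blue. The receptor ratio is 0.162 and 0.212 in the knockout-labelled libraries against 0.370 and 0.366 in wild type, and the corepressor ratio is 0.286 and 0.219 against 0.121 and 0.135.

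None of the 3 SMAD genes that transmit the signal passed the threshold. Smad2 (chromosome 18), a receptor-activated SMAD, measured 43.4 and 39.2 CPM in knockout-labelled 22 and 24, against 44.6 and 46.1 CPM in wild type 13 and 15 (log2 fold change -0.13, 95% interval -0.44 to 0.17, adjusted p = 0.506). Smad3 (chromosome 9), the other receptor-activated SMAD and the one that binds DNA directly, measured 77.8 and 68.1 CPM against 77.1 and 76.3 CPM. Its groups overlapped, with knockout-labelled 22 the highest and knockout-labelled 24 the lowest of the 4 libraries (log2 fold change -0.07, 95% interval -0.39 to 0.25, adjusted p = 0.744), and with knockout-labelled 24 left out its fitted value was 0.017. The ratio of Smad2 to Smad3 in FPKM was 0.609 and 0.628 in knockout-labelled libraries and 0.631 and 0.661 in wild type.

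Smad4, the common partner of both, measured 102 and 75.8 CPM in knockout-labelled 22 and 24, against 70.7 and 73.6 CPM in wild type 13 and 15. Library 22 was high, while library 24 lay close to wild type (log2 fold change 0.30, SE 0.17, adjusted p = 0.272). The fitted value was 0.08 without library 22 and 0.50 without library 24. Smad4 passed in 1 of 14 alternative fits, that without library 24, where far more of all genes passed. A processed pseudogene is annotated on the opposite strand within Smad4, and whether counting used strand is not given in the sources used here.

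Of the 3 feedback inhibitors, SKI and SKIL are close relatives, and their genes had fitted values of opposite sign. Skil (chromosome 3, 31095058 to 31122577), a corepressor gene that TGF-beta itself induces, measured 178 and 140.2 CPM in knockout-labelled 22 and 24, against 98.4 and 107 CPM in wild type 13 and 15. Both knockout-labelled values were above both wild-type values, at a mean of 159 ± 26.7 CPM against 103 ± 6.20 CPM (SD, n = 2 each), yet the adjusted p of 0.0513 lay just beyond the threshold (log2 fold change 0.63, SE 0.16). It passed in 7 of 14 alternative fits, among them DESeq2 (adjusted p = 0.00923), no filter on low counts (0.0166) and upper-quartile scaling (0.0467), within a range up to 0.307 with wild type 13 left out.

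Ski (chromosome 4, 155154075 to 155222592) measured 191 and 196 CPM in knockout-labelled 22 and 24, against 250.5 and 243 CPM in wild type 13 and 15. Replicates lay close together, and the knockout-labelled pair was lower (log2 fold change -0.35, SE 0.11), but the adjusted p of 0.0904 did not pass. Ski passed in 1 of 14 alternative fits, that with knockout-labelled 24 left out, where far more of all genes passed. The log2 fold change of Ski there was -0.37. The ratio of Skil to Ski within a library was 0.286 and 0.219 in the knockout-labelled libraries, against 0.121 and 0.135 in wild type. Smad7, the inhibitory SMAD, is induced by TGF-beta and targets the receptor for degradation, and it measured 78.7 and 80.6 CPM against 65.6 and 69.8 CPM in the same order of libraries (log2 fold change 0.23, SE 0.13, 95% interval -0.07 to 0.54, adjusted p = 0.25). Its 2 knockout-labelled values were above its wild-type values by less than the test could separate, and no alternative fit called it. The FPKM ratio of Smad7 to Smad3 was 0.750 and 0.877 in the knockout-labelled libraries, against 0.631 and 0.679 in wild type.

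**Figure D3:**
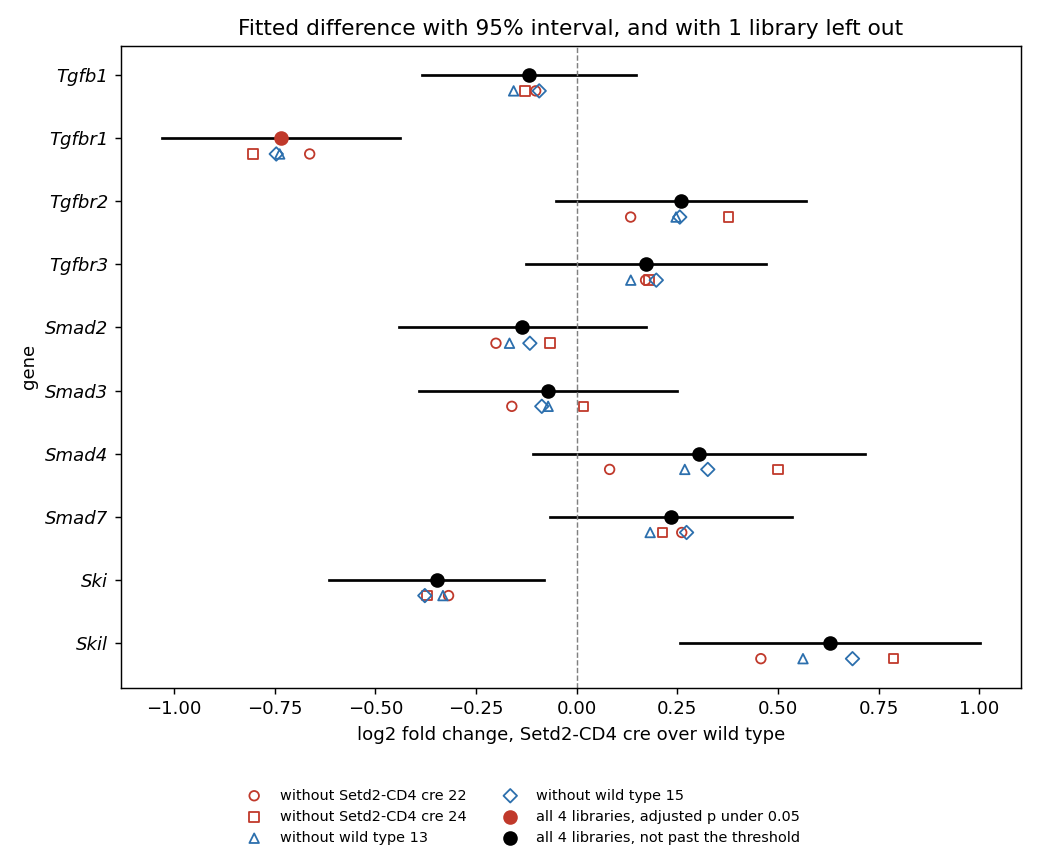
Log2 fold change of each gene, knockout-labelled (Setd2-CD4 cre) over wild type, with its 95% interval from the fit to all 4 libraries (filled points) and the value with 1 library left out (open points). Tgfbr1 lies at -0.73, and its values with 1 library left out span -0.80 to -0.66, while those of Smad3 fall on both sides of 0.

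Levels were compared between genes on the FPKM scale, which divides by gene length. In wild type, the order ran from Tgfbr2 (49.0 ± 0.335 FPKM) over Tgfb1 (44.4 ± 1.49), Ski (39.4 ± 0.775) and Tgfbr1 (18.0 ± 0.0323) to Smad3, Smad4, Tgfbr3, Smad7, Smad2 and Skil (5.03 ± 0.315; SD, n = 2 each), and Smad7 and Smad2 were not separated by their replicates. The knockout-labelled order kept Tgfbr2 (56.2 ± 5.36 FPKM), Tgfb1 (39.3 ± 1.45) and Ski (29.7 ± 1.49) at the top and Skil (7.46 ± 1.02) at the bottom. Tgfbr1, the fourth in wild type, was the seventh there at 10.4 ± 0.964 FPKM, overlapping with Smad7 at 10.1 ± 0.477 FPKM. In that order Smad3 overlapped with Tgfbr3, and Smad2 with Skil. Tgfbr2 stood above 94.1% of tested genes by mean FPKM and Skil above 53.3%.

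**Figure D4:**
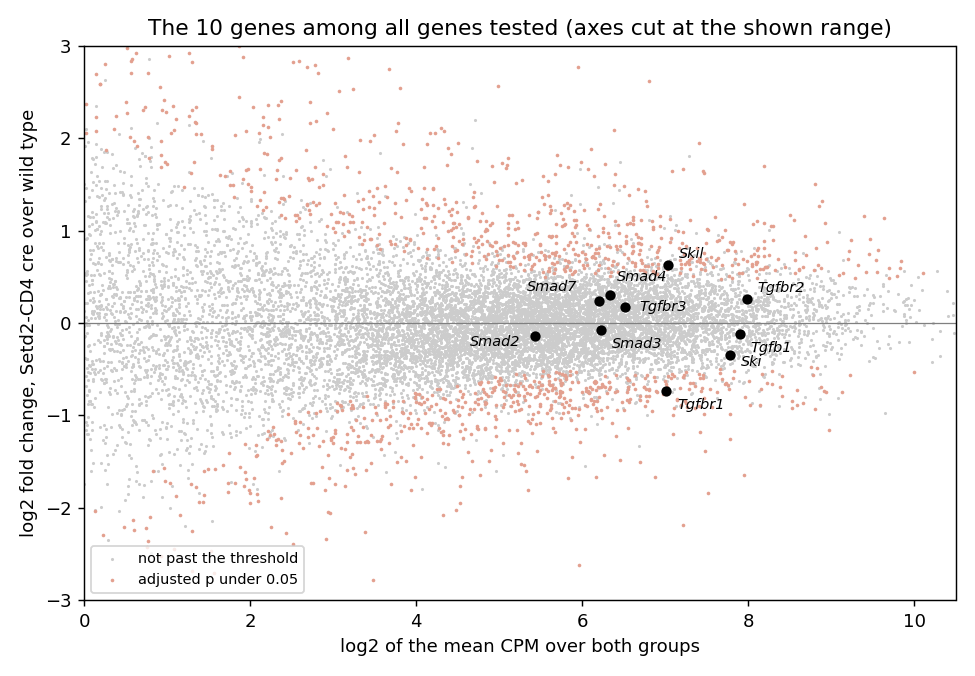
Log2 fold change (knockout-labelled, Setd2-CD4 cre, over wild type) against the log2 of the mean CPM for the genes tested, with the 10 named genes in black and genes past the threshold in light red; genes outside the shown axes are left off. Tgfbr1, at -0.73, lies among the called genes and Skil, at 0.63, at their edge, while the other named genes lie within the grey cloud.

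Other genes of the pathway were taken from lists. Of 83 such genes, 74 passed the filter, 5 rose (Furin, Zeb2, Tgif1, Xiap and Daxx) and 3 fell (Nrros, Acvr1b and Hdac1), which is 10.8% beside 10.1% of all genes. Their median log2 fold change was 0.11, beside -0.0013 over all genes. Of 14 alternative fits, the call of Acvr1b, Tgif1 and Zeb2 held in 12 each, that of Xiap in 9, that of Furin, Daxx and Hdac1 in 8 each and that of Nrros in 7.

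Among 10 tested genes of ligand supply and latency, 1 rose and 1 fell (20% called, beside 10.1% of all genes). Furin, the protease that cleaves the TGF-beta precursor, measured 310.0 and 269.9 CPM in knockout-labelled 22 and 24, against 187 and 210.4 CPM in wild type (log2 fold change 0.55, adjusted p = 0.0488). Nrros, a myeloid tether of latent TGF-beta, measured 20.3 and 22.8 CPM against 34.9 and 32.2 CPM (log2 fold change -0.64, adjusted p = 0.0491). Neither Furin nor Nrros passed with wild type 13 or wild type 15 left out, where few of all genes passed. Their log2 fold changes were 0.46 and -0.58 with wild type 13 left out, and 0.63 and -0.70 with wild type 15 left out. Lrrc32, which encodes GARP, the tether of latent TGF-beta on Treg cells, measured 17.5 and 49.2 CPM in the knockout-labelled libraries, against 81.0 and 114 CPM in wild type. It was picked after its values were seen and did not pass (log2 fold change -1.54, SE 0.44, adjusted p = 0.0688). Its log2 fold change was -0.98 with knockout-labelled 22 left out and -2.48 with knockout-labelled 24 left out, and it passed in 4 of 14 alternative fits.

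Of 9 tested receptors of the wider family, Acvr1b fell and the others did not pass (11.1% called, beside 10.1% of all genes). ACVR1B is the activin type I receptor and, like TGFBR1, phosphorylates SMAD2 and SMAD3. Its gene measured 29.9 and 30.1 CPM in knockout-labelled 22 and 24, against 53.1 and 48.3 CPM in wild type 13 and 15 (log2 fold change -0.76, SE 0.13, adjusted p = 0.0238). The pairs lay apart by more than their spread. Acvr1b did not pass with wild type 13 or wild type 15 left out, where few of all genes passed. Its log2 fold change there was -0.69 and -0.83. The remaining SMAD genes gave 0 calls of 3 tested, with Smad1, which serves bone morphogenetic protein receptors, at an adjusted p of 0.366.

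Of 14 coactivators and corepressors of SMADs, 2 rose, 1 fell and 11 did not pass (21.4% called, beside 10.1% of all genes). Tgif1, a homeobox corepressor of SMAD2, measured 135 and 98.9 CPM in knockout-labelled 22 and 24, against 56.8 and 55.1 CPM in wild type 13 and 15 (log2 fold change 1.06, SE 0.18, adjusted p = 0.0227). With wild type 13 or wild type 15 left out, where few of all genes passed, Tgif1 did not pass (log2 fold change 1.08 and 1.04). Zeb2, a zinc-finger repressor that binds SMADs, measured 46.6 and 25.6 CPM against 8.76 and 9.995 CPM (log2 fold change 1.94, SE 0.30, adjusted p = 0.0202). With limma on the log2(FPKM + 1) scale, which understates low genes, the change of Zeb2 was 0.65 (adjusted p = 0.06). With limma on log2(FPKM + 0.1) it was 1.53 and did not pass either (adjusted p = 0.0501). Hdac1, a histone deacetylase of corepressor complexes, fell to 82.6 and 95.4 CPM, against 134 and 129 CPM in wild type (log2 fold change -0.56, adjusted p = 0.0475). With wild type 13 or wild type 15 left out, where few of all genes passed, Hdac1 did not pass (log2 fold change -0.55 and -0.59).

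None of the 12 adaptors and DNA-binding partners and none of the 16 turnover genes passed. Runx3, a DNA-binding partner of SMADs, came nearest, at 313 and 214 CPM in knockout-labelled 22 and 24, against 153 and 156 CPM in wild type (log2 fold change 0.77, adjusted p = 0.0508; it passed in 9 of 14 alternative fits). Wwp1, a ubiquitin ligase that acts on TGFBR1 and SMADs, had the lowest adjusted p of the turnover genes at 0.14 (log2 fold change 0.35).

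In the arm that runs from the receptor to kinases without SMADs, 2 of 10 genes rose and none fell. The 20% called, beside 10.1% of all genes, rest on 2 genes and are only a description. Xiap, a ubiquitin ligase that links receptors to the kinase TAK1, measured 184 and 116 CPM in knockout-labelled 22 and 24, against 39.6 and 70.0 CPM in wild type 13 and 15 (log2 fold change 1.45, adjusted p = 0.0397). Its log2 fold change was 1.09 with wild type 13 left out and 1.09 with knockout-labelled 22 left out, and Xiap passed in neither fit. Daxx, an adaptor that binds TGFBR2, measured 57.4 and 58.2 CPM against 40.6 and 37.8 CPM (log2 fold change 0.56, adjusted p = 0.0403). With wild type 13 or wild type 15 left out, where few of all genes passed, Daxx did not pass (log2 fold change 0.61 and 0.50).

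**Figure D5:**
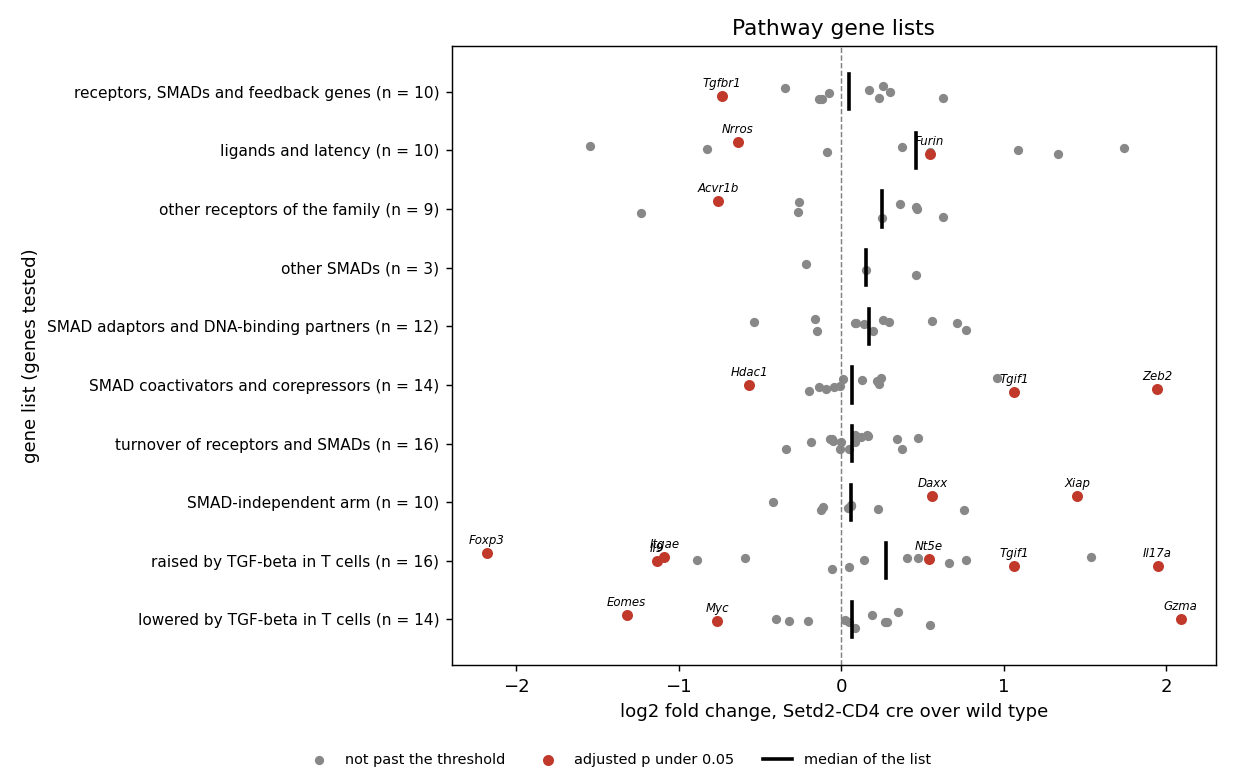
Log2 fold change of each tested gene, knockout-labelled (Setd2-CD4 cre) over wild type, by pathway list, with genes past the threshold in red and the median of each list as a bar; vertical scatter within a list is only for legibility. The list raised by TGF-beta in T cells reaches from Foxp3 at -2.18 to Il17a at 1.95.

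Genes listed as raised by TGF-beta in T cells went both ways. The list includes Il17a, a gene of the Th17 fate, which also takes inflammatory cytokines. Of 16 tested, 3 rose (Il17a, Tgif1 and Nt5e), 3 fell (Foxp3, Itgae and Il9) and 10 did not pass, and 1 more was too low to test. That is 37.5% called beside 10.1% of all genes. The list was chosen with earlier results of these data known, so its share is only a description and shows no enrichment. Neither Nt5e nor Il9 passed with wild type 13 left out (log2 fold change 0.45 and -0.96) or with wild type 15 left out (0.62 and -1.29), where few of all genes passed. The call of Il9 was also lost with knockout-labelled 22 left out (log2 fold change -0.93) and with upper-quartile scaling in edgeR (adjusted p = 0.0518). Nt5e also did not pass with limma on log2(FPKM + 1) (adjusted p = 0.06) or on log2(FPKM + 0.1) (0.0588). Itgae, the integrin chain CD103 that TGF-beta induces through SMAD3, measured 32.0 and 25.7 CPM in knockout-labelled 22 and 24, against 55.9 and 66.5 CPM in wild type (log2 fold change -1.09, SE 0.17, adjusted p = 0.0199). With wild type 15 left out, where few of all genes passed, Itgae did not pass (log2 fold change -0.96). Foxp3 measured 31.9 and 75.8 CPM in knockout-labelled 22 and 24, against 242 and 247 CPM in wild type (log2 fold change -2.18, SE 0.37, adjusted p = 0.0233; -1.68 with knockout-labelled 22 left out and -2.94 with knockout-labelled 24 left out). Il17a, the Th17 cytokine gene, measured 261 and 278 CPM in the knockout-labelled libraries, against 69.2 and 70.5 CPM in wild type (log2 fold change 1.95, SE 0.12, adjusted p = 0.00947). Both passed in 14 of 14 alternative fits.

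Among genes of that list that curb the signal, Tgif1 rose, as given above, and a pair of others did not pass. Pmepa1, which binds and sequesters receptor-activated SMADs, measured 84.3 and 92.0 CPM in knockout-labelled 22 and 24, against 92.3 and 90.8 CPM in wild type 13 and 15 (adjusted p = 0.798), and Ldlrad4, a related inhibitor, measured 96.3 and 68.1 CPM against 53.3 and 65.2 CPM (adjusted p = 0.164). Pmepa1 and Ldlrad4 were picked for their role after their values were seen. Of 14 genes that TGF-beta is known to lower, 1 rose (Gzma, a granzyme, at a log2 fold change of 2.09), 2 fell and 11 did not pass. That is 21.4% called beside 10.1% of all genes, again only a description of a list chosen with earlier results known. The genes of this list that fell were Eomes, a T-box factor of cytotoxic cells, at -1.32 (adjusted p = 0.0205), and Myc, a growth regulator, at -0.76 (adjusted p = 0.0337). With wild type 13 and wild type 15 left out in turn, Eomes was at -1.29 and -1.36 and Myc at -0.83 and -0.71. Neither gene passed in those fits, where few of all genes passed. With all 4 libraries, Myc also did not pass with limma on log2(FPKM + 1) (adjusted p = 0.064) or on log2(FPKM + 0.1) (0.0618).

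The genes whose pattern over the 4 libraries was nearest to that of Tgfbr1, among 10407 genes with a mean of 5 CPM or more, were Zfp606, Gpr179 and Zdhhc8, at Euclidean distances of 0.0333, 0.0405 and 0.0423 in centred log2 CPM. Zfp606 measured 16.3 and 18.4 CPM in knockout-labelled 22 and 24, against 29.0 and 28.6 CPM in wild type, and Zdhhc8 measured 46.2 and 49.2 CPM against 81.4 and 78.4 CPM. Gpr179 measured 4.15 and 4.72 CPM in the knockout-labelled libraries, against 7.54 and 7.45 CPM in wild type, and did not pass (adjusted p = 0.0795). With 4 libraries many genes can lie this close, and the likeness is only a description.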

How the data were processed

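Bowtie2 and RSEM with the GRCm38.p6 (mm10) mouse genome are named in the submitters' processing notes. Not given in the sources used here are versions, the gene annotation and the use of strand. The deposited table held whole-number counts per gene, 1 column per library, and the authors' deposited FPKM. Counts were tested with edgeR 4.0.16 (R 4.3.3): filterByExpr (minimum count 10, minimum total 15), scaling by trimmed mean of M values, glmQLFit and glmQLFTest, two-sided, knockout-labelled over wild type, no covariate, Benjamini-Hochberg adjustment over all 13279 genes tested, threshold 0.05. The standard error is the log2 fold change over the square root of F, and intervals at 95% use the fit's degrees of freedom; both are approximate. Replicates differed beyond counting noise (chi-square per degree of freedom 30.6 in the knockout-labelled pair and 9.90 in wild type). Floors of 3 counts cover counting error only.

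The 10 genes and the pathway and marker lists were chosen with earlier results of these data known. Beyond the 10 genes, names follow a rule: fixed genes, up to 4 genes of each list past the threshold (otherwise the 1 with the lowest adjusted p), and the 3 genes nearest to the member with the lowest adjusted p; others are marked where they stand, and 1 gene was left out of these lists and is not reported here. Overlaps and biotypes come from GENCODE M21 (GRCm38) and upstream sequences from RefSeq (GRCm38.p6). Alternatives used other scalings and filters, robust dispersion, DESeq2 1.42.0, limma 3.58.1 (voom, and log2(FPKM + 1) or log2(FPKM + 0.1)) and each library left out. Where 1 library remained in a group, its spread was assumed equal to that of the other group. The fit was tested on simulated counts of 13279 genes. It recovered 8.96% of 67 genes changed 1.5-fold, 52.2% of 67 changed 2-fold and 87.9% of 66 changed 4-fold. Of its calls there, 22.0% fell on unchanged genes. A gene that did not pass may therefore still differ, and some calls may be false. The simulation changed a smaller share of genes than was called in the data, so its rates may not carry over. Figures used matplotlib 3.10.9.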

Additional observations from a re-analysis of the deposited data

How the results depend on the processing

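No paired analysis was possible because the libraries of the groups share no replicate number. Of the 10 genes, 1 rose (Skil) instead of 0 with upper-quartile scaling, no filter, a filter at a mean of 5 CPM, DESeq2 and robust dispersion, and leaving out 1 library gave 0 to 3 higher and 0 to 2 lower. Over all genes, 1261 rose and 1088 fell without a filter, 445 rose with limma on log2(FPKM + 1) and 457 on log2(FPKM + 0.1), and with 1 library left out 120 to 2122 rose and 70 to 2002 fell. With the library total as scaling, 674 rose and 771 fell, a balance other than the 734 and 610 reported. Of the other pathway genes, 8 rose with DESeq2, 10 rose and 6 fell without a filter, 1 rose and 1 fell on either FPKM scale, 1 fell with upper-quartile scaling and with the 5 CPM filter, and with 1 library left out 1 to 20 rose and 0 to 7 fell. Smad3 ranged from -0.16 to 0.017 with 1 library left out and turned to 0.017 with knockout-labelled 24 left out; the cause was not tested. Tgfbr1 stayed past the threshold in 12 of 14 alternatives. Of the 3 other scalings, the library total shifted the median of all genes furthest, by -0.0571 (log2). Depth did not limit the 10 genes, whose lowest count was 614, but 9 of the 83 other pathway genes were too low to test.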

Other observations

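Itgav and Ets1 differed strongly between libraries of 1 group, and the causes were not tested. Itgav, the integrin alpha-v chain that takes part in activating latent TGF-beta, measured 215 and 56.0 CPM in knockout-labelled 22 and 24, against 38.7 and 42.5 CPM in wild type 13 and 15 (adjusted p = 0.0874). Ets1, a lymphocyte transcription factor, measured 1150 and 1103 CPM in the knockout-labelled libraries, and 373 CPM in wild type 13 beside 1153 CPM in wild type 15 (adjusted p = 0.424). These 2 genes were chosen after their values were seen.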
